A study of Homo sapiens with 24 samples.

Results

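HL60 is a human acute promyelocytic leukaemia line, and its 6 microarrays, 3 of cells treated with 10 mM metformin for 24 h (Met) and 3 of untreated cells (Ctrl), were taken by cell line and treatment from the labels of a series of 24 arrays. The other 18 arrays are the same pair of conditions, 3 arrays each, in the acute myeloid leukaemia lines KG1a, MOLM14 and U937. The labels class HL60 as a line of low oxidative phosphorylation, together with U937, and they class KG1a and MOLM14 as high. All 8 groups are established lines kept in growing culture with penicillin and streptomycin, and HL60 is 1 line, so nothing here extends to other promyelocytic cells. The rule chose arrays by label and no measured value entered it, but HL60 and the gene lists were chosen with earlier results of these data known. Of 14884 genes with a named row, 10641 reached a group mean of 4.02, the median of all rows, in at least 1 of the 8 groups, and these were tested. Values are normalized signals on a log2 scale, so a change of 1 is a doubling. Changes are differences of group means, Met minus Ctrl, ± the standard error of limma's fit to all 24 arrays, and a call is an adjusted p under 0.05. Separate cultures are not stated for arrays A to C, so a p-value here speaks of array-to-array spread, which may be technical, and 3 arrays a group limit the precision.

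A promyelocyte is the stage of neutrophil formation at which the cell fills its primary, or azurophil, granules with myeloperoxidase and the serine proteases of the elastase family, and these genes are shut off as the cell matures. HL60 cells are known for this granule programme and for an amplified MYC gene, and they can be driven towards neutrophil, monocyte or eosinophil forms in culture. Metformin is a biguanide that lowers the activity of complex I of the mitochondrial respiratory chain, and cells answer such a loss with the ATF4 stress response, which raises genes of amino acid supply, and with lower sterol synthesis.

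Of the measured promyelocyte markers, MPO was highest in HL60, while PRTN3, AZU1 and CTSG were higher in MOLM14 and U937. MPO, the myeloperoxidase gene, averaged 12.53 in Met and 12.48 in Ctrl arrays of HL60, against 7.62 and 8.93 in MOLM14 and 3.30 or less in KG1a and U937. Of the 7 promyelocyte markers 4 were measured, and the lowest of them, AZU1, averaged 6.70 in Met and 6.97 in Ctrl. In controls of MOLM14 and U937 AZU1 averaged 10.1 and 8.7. PRTN3 averaged 11.36 in HL60 controls, against 12.26 in MOLM14 and 11.82 in U937, and CTSG 9.81, against 11.25 and 10.43. ELANE, RNASE2, CEBPA, CEBPE, CD33 and CDKN1A are not analysed here. Of 18 markers of T, B, erythroid and megakaryocytic cells 7 were measured, with summed levels of 27.3 in Met and 28.0 in Ctrl arrays and single means of 3.12 to 4.91. The 3 stem cell markers measured lay between 3.46 and 3.68 and summed to 10.8 in Met and 10.9 in Ctrl.

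Arrays of 1 HL60 group correlated at r = 0.983 to 0.992 over all rows, and their medians lay between 3.99 and 4.08. Control C stood apart: the interquartile range of its values was 1.90, against 2.27, 2.31 and 2.23 in the Met arrays and 2.20 and 2.12 in controls A and B. Metformin left 1649 genes higher (15.5% of those tested) and 1017 lower (9.56%) in HL60, with a median change of 0.00 over all 10641 genes. Most changes were small: the median was 0.44 among the higher genes and -0.37 among the lower, and 91 higher and 25 lower genes passed 2-fold. All 3 Met arrays lay above all 3 Ctrl arrays in 2254 genes (21.2%) and below them in 1704 (16.0%). Without control C, 1101 genes were higher and 971 lower. The split between higher and lower followed the scaling, with 1281 and 1538 after quantile normalization.

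The HL60 change differed from the mean change of KG1a, MOLM14 and U937 in 819 genes, 624 of them higher in HL60 (5.86% of those tested) and 195 lower (1.83%). The median of this difference over all genes was 0.02. Counts of gene lists below are to be read against 15.5% higher and 9.56% lower for the HL60 change. For the difference the shares over all genes are 5.86% and 1.83%. In 579 of the 624 and in 179 of the 195 the HL60 change itself passed with the same sign. For 419 of the 624 and 117 of the 195 the mean of the other lines did not pass. In 26 genes HL60 and the mean of the others both passed with opposite signs, and 23 of these were higher in HL60. Without control C the difference passed for 606 genes, 424 higher and 182 lower.

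**Figure D1:**
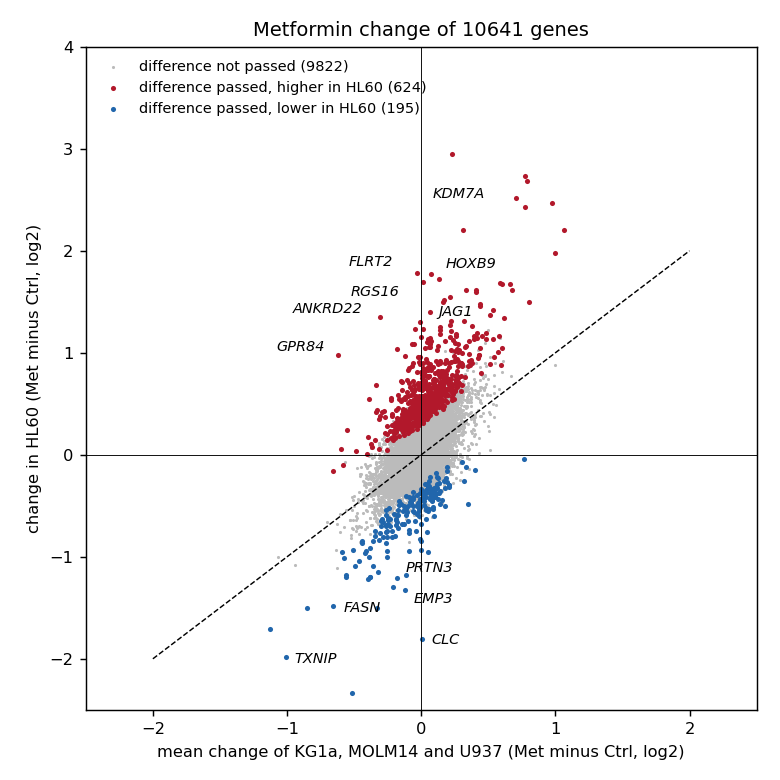
Each point is 1 of 10641 genes. The vertical axis is its change in HL60 and the horizontal axis the mean of its changes in KG1a, MOLM14 and U937, both Met minus Ctrl on the log2 scale, and the dashed line marks equal change. The 624 red and 195 blue genes passed the test of the difference. FLRT2, HOXB9 and RGS16 lie near 0 on the horizontal axis and above 1.6 on the vertical axis, and CLC lies near 0 on the horizontal axis at -1.80 on the vertical axis.

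The granule genes of HL60 did not move together, and the promoters of 3 that changed by different amounts and signs are shown here. They are the 300 bases from 250 before to 50 after the RefSeq start on GRCh38.p14, with capitals for the letters AGATAA (bound by GATA factors), GAGGAA (a PU.1 core) and TGATGNAA (a C/EBP-ATF composite), searched on both strands. CLC lies at chr19:39737980-39738279 on the minus strand, PRTN3 at chr19:840749-841048 on the plus strand and CTSG at chr14:24576201-24576500 on the minus strand.
CLC: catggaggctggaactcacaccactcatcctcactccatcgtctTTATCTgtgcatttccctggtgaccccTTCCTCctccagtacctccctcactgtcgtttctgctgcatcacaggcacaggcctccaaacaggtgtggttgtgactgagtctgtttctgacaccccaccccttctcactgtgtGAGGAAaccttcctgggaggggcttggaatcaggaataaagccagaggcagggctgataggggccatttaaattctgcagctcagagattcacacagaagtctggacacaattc
PRTN3: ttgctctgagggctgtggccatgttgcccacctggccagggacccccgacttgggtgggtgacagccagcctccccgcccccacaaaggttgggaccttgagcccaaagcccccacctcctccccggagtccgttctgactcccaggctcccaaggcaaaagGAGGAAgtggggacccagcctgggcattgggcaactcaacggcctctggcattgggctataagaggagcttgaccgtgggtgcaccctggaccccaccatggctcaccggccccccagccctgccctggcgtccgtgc
CTSG: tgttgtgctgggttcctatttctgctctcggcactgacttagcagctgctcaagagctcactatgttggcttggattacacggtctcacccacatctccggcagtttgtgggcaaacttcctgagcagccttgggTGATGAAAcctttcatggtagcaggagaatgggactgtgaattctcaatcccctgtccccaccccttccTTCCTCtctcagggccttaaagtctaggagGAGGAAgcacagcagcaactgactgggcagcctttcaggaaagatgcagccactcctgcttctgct
CLC holds AGATAA 1 time and GAGGAA 2 times, PRTN3 holds GAGGAA 1 time, and CTSG holds GAGGAA 2 times and TGATGNAA 1 time. Among the 8077 tested genes with a promoter in the table, 27.8% hold GAGGAA, 5.67% hold AGATAA and 1.77% hold TGATGNAA. These matches describe the letters only.

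PRTN3, which encodes the azurophil serine protease proteinase 3, fell in HL60. It measured 10.24, 10.15 and 10.09 in Met arrays, against 11.31, 11.34 and 11.45 in Ctrl arrays, a change of -1.21 ± 0.07 (adjusted p = 9.41e-12). The groups were more than 1 apart, with no array between them. MOLM14 and U937 carried more PRTN3 than HL60, with control means of 12.26 and 11.82, and changed by -0.27 and -0.38. The HL60 change was lower than the mean of the others by 1.02 ± 0.09 (adjusted p of the difference 7.28e-09), where KG1a, at 3.30 in controls, enters with 0.10.

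Its close relatives took other courses. CTSG, the gene of cathepsin G, measured 10.21, 10.15 and 10.11 in Met and 9.91, 9.86 and 9.65 in Ctrl arrays, a rise of 0.35 ± 0.08 (adjusted p = 0.00275). AZU1, which encodes the antimicrobial protein azurocidin, had 6.60, 6.79 and 6.72 in Met and 7.20, 6.93 and 6.77 in Ctrl, where 1 Met array overlapped the controls (-0.27 ± 0.10, adjusted p = 0.0498), and the call was lost without control A (adjusted p = 0.284), control B or any 1 of the Met arrays. MPO stayed at 12.57, 12.52 and 12.49 in Met, against 12.58, 12.47 and 12.40 in Ctrl (0.04 ± 0.09, adjusted p = 0.784). The highest value of any row, named or not, on any of the 24 arrays was 14.19. In MOLM14, MPO changed by -1.32, and the HL60 change exceeded the mean of the others by 0.53 ± 0.10 (adjusted p = 0.00176), a difference that rests on MOLM14. Without MOLM14 in the mean it was 0.11 (adjusted p = 0.592). The CTSG difference from the other lines, 0.30 ± 0.10, had an adjusted p of 0.0495 and did not pass in 12 of 20 alternatives, among them leaving out control C (adjusted p = 0.204), control B or any 1 of the Met arrays.

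Over the whole primary granule list 13 of 22 genes were tested, and 4 were higher and 5 lower in HL60, against 15.5% and 9.56% of all genes, with a median change of -0.17 against 0.00. CST7, which encodes cystatin F, an inhibitor of cathepsins in immune cells, rose by 0.73 ± 0.08 (adjusted p = 2.65e-07), with 9.70, 9.85 and 9.77 in Met and 8.98, 9.14 and 9.01 in Ctrl arrays. HGF, which encodes hepatocyte growth factor, rose by 0.47 ± 0.10, and lysozyme (LYZ) fell by 0.48 ± 0.11. The difference from the other lines was higher in 4 of the 13 and lower in 1, and after quantile normalization in 4 and 5.

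CLC, EPX and GATA2, the 3 called genes of the 6 tested on the eosinophil and basophil list, fell in HL60. CLC, which encodes galectin-10, the protein of Charcot-Leyden crystals in eosinophils and basophils, measured 7.88, 7.88 and 7.92 in Met arrays, against 9.76, 9.73 and 9.60 in Ctrl arrays. That is -1.80 ± 0.11 (adjusted p = 1.51e-11), or a fall of more than 3-fold, with all Met arrays well below all controls. EPX, the gene of eosinophil peroxidase, had 5.50, 5.02 and 5.27 in Met and 6.81, 6.65 and 6.20 in Ctrl, a change of -1.29 ± 0.14 (adjusted p = 4.38e-07). GATA2, a transcription factor of progenitors, mast cells and basophils, had 4.91, 5.15 and 5.27 in Met and 5.56, 5.90 and 5.83 in Ctrl, a change of -0.65 ± 0.10 (adjusted p = 5.15e-05). In each of the 3 genes all Met arrays lay below all Ctrl arrays.

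Of 15 genes on the eosinophil and basophil list 6 were tested, and 3 were lower and 0 higher, against 9.56% and 15.5% of all genes, with a median change of -0.43. CPA3, a mast cell protease, is among the 3 not called (-0.21, adjusted p = 0.201). The 3 called genes also differed from the mean of the other lines, by -1.81 ± 0.13 for CLC, -1.08 ± 0.17 for EPX and -0.60 ± 0.12 for GATA2, and the counts were the same after quantile normalization, with centred arrays, with array weights and without control C. CLC and EPX lay at 4.02 or below in every group of the other lines, near the lower end of the scale, where changes are compressed. EPX also fell in MOLM14, by 0.63 (adjusted p = 0.0096), where it measured 3.39 in Met and 4.02 in Ctrl. GATA2 was also on in KG1a, at 6.19 in controls, and changed there by 0.01. In bulk RNA, fewer eosinophil-like cells in the culture and less of these RNAs in each cell cannot be told apart.

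**Figure D2:**
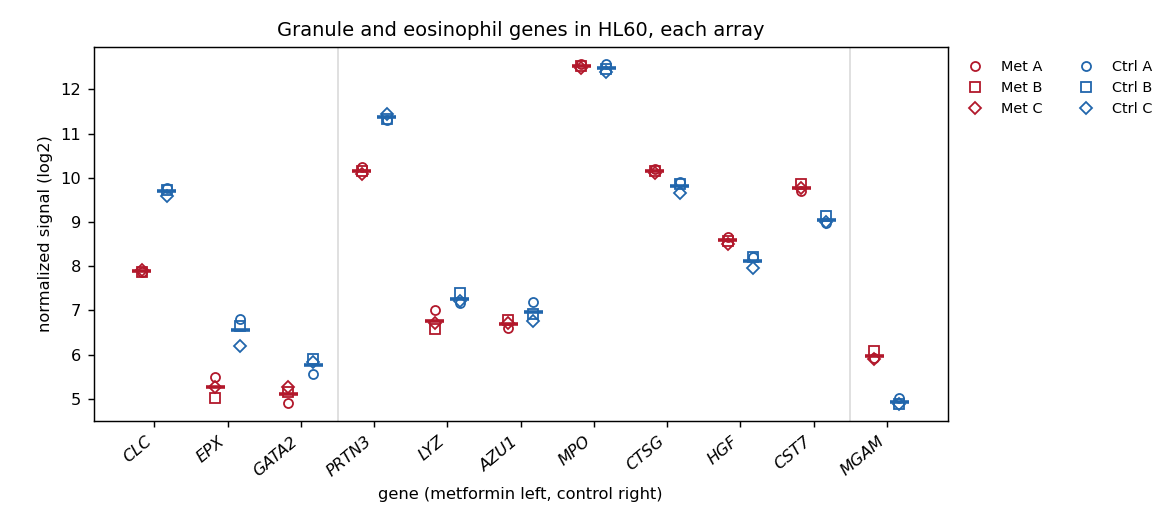
Each point is the normalized log2 signal of 1 HL60 array, Met in red on the left and Ctrl in blue on the right of each gene, with bars at the group means of 3 arrays. Grey lines divide the eosinophil and basophil list (CLC, EPX, GATA2), the primary granule list (PRTN3 to CST7) and the late granule list (MGAM). Red points lie below blue points for CLC, EPX, GATA2, PRTN3 and LYZ, above them for CTSG, HGF, CST7 and MGAM, and among them for AZU1 and MPO.

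Of 13 tested genes of later neutrophil stages, 3 rose (23.1%) and 0 fell, against 15.5% and 9.56% of all genes. The median change was -0.09. MGAM, which encodes maltase-glucoamylase, an enzyme of neutrophil granules and of the gut, had 5.92, 6.09 and 5.90 in Met and 5.02, 4.88 and 4.89 in Ctrl arrays, a rise of 1.04 ± 0.09 (adjusted p = 1.16e-08). In controls of the other lines MGAM averaged 3.12 in KG1a, 3.05 in MOLM14 and 4.04 in U937. CSF3R, the receptor of granulocyte colony-stimulating factor, rose by 0.64 ± 0.10, and CEACAM1, a surface adhesion molecule of granulocytes and epithelia, by 0.28 ± 0.10. The CEACAM1 call was lost without control A (adjusted p = 0.145), control B, Met B or Met C. LCN2, the secondary granule protein lipocalin, stayed at 3.82 to 3.89 in Met and 3.94 to 4.12 in Ctrl (-0.18 ± 0.10, adjusted p = 0.176).

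The 2 monocyte and macrophage genes called in HL60, MNDA and TLR4, both fell. Of 8 tested, 0 were higher and 2 lower, against 15.5% and 9.56% of all genes, with a median change of -0.19, and 4 were lower after quantile normalization. MNDA, a nuclear protein of myeloid cells, measured 5.89, 5.88 and 5.91 in Met and 6.54, 6.53 and 6.53 in Ctrl (-0.64 ± 0.10, adjusted p = 2.99e-05). TLR4, the endotoxin receptor, changed by -0.62 ± 0.12, with no overlap between groups. Neither difference from the other lines passed, and MNDA changed by -1.22 in MOLM14.

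Of 18 tested transcription factors of myeloid cells and of the MYC network 6 rose (33.3%) and 1 fell (5.56%). Over all genes 15.5% rose and 9.56% fell. The median change of the list was -0.01. MXD1, a MAX partner that opposes MYC and increases as myeloid cells mature, rose by 0.77 ± 0.10, with 6.76, 6.69 and 6.61 in Met against 6.04, 6.02 and 5.68 in Ctrl. MAX, the shared partner of MYC and MXD1, rose by 0.56 ± 0.08 (7.77, 7.69 and 7.76 in Met, 7.19, 7.29 and 7.07 in Ctrl). Both changes were higher than in the other lines, by 0.50 ± 0.12 (adjusted p = 0.0077) and 0.45 ± 0.10 (adjusted p = 0.00366). MYC itself, amplified in this line, was at 10.07, 9.89 and 9.99 in Met and 9.78, 9.77 and 9.60 in Ctrl (0.27 ± 0.09, adjusted p = 0.0225). MYB, a factor of progenitor growth, rose by 0.33 ± 0.10, and the granulocytic repressor GFI1 by 0.37 ± 0.08. SPI1, the gene of PU.1, fell by 0.34 ± 0.11 (adjusted p = 0.0238). The calls of MYC and MYB were lost without control C, at adjusted p of 0.12 and 0.085, and without Met A, and that of MYC also without Met C. The SPI1 call was lost without control A, control B or Met C (largest adjusted p 0.138). The differences of MYC, MYB, GFI1 and SPI1 from the other lines did not pass.

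Among the genes with the largest rises in HL60, after the ATF4, sterol, serine and tRNA synthetase lists were set aside, several code for surface and signalling proteins, and most differed from the other lines. FLRT2, an adhesion protein that binds Unc5 receptors and latrophilins, had 6.00, 6.11 and 6.08 in Met and 4.10, 4.46 and 4.28 in Ctrl arrays, a change of 1.78 ± 0.10 (adjusted p = 1.67e-12). RGS16, which speeds the shut-off of G protein signals, had 7.0, 7.03 and 7.08 in Met and 5.58, 5.25 and 5.21 in Ctrl (1.69 ± 0.12, adjusted p = 8.33e-11). JAG1, a Notch ligand, had 9.63, 9.54 and 9.43 in Met and 8.20, 8.01 and 8.19 in Ctrl (1.40 ± 0.08, adjusted p = 3.09e-12). All 3 genes were more than 1 higher in every Met array than in any control. The changes in KG1a, MOLM14 and U937 were -0.10, -0.05 and 0.05 for FLRT2, -0.27, 0.29 and 0.02 for RGS16, and -0.09, 0.14 and 0.14 for JAG1. JAG1 was measured well above the lower end in all 4 lines, with control means of 8.43 in KG1a, 9.79 in MOLM14 and 7.28 in U937, and its change passed in HL60 and not in the other 3.

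HOXB9, a homeobox gene of body patterning, rose from a low level. It measured 6.31, 6.18 and 6.32 in Met and 4.48, 4.31 and 4.69 in Ctrl, a change of 1.78 ± 0.13 (adjusted p = 1.86e-10), and stayed between 4.0 and 4.3 in the other lines' controls. ETS1, a transcription factor of lymphoid and myeloid cells, had 6.44, 6.26 and 6.27 in Met and 5.42, 5.10 and 5.20 in Ctrl, a change of 1.08 ± 0.09, against changes of 0.05, -0.19 and -0.06 in the other lines. ANXA3, an annexin found at neutrophil granules, rose by 1.55 ± 0.09, with 7.04, 7.08 and 6.82 in Met and 5.61, 5.37 and 5.33 in Ctrl. The Met arrays of these genes lay clear of the controls.

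The other genes with large rises were of mixed kinds. PAG1, a membrane adaptor that recruits CSK, rose by 1.48 ± 0.13, and also by 0.68 in MOLM14 and 0.53 in U937. CDC42BPA, a CDC42-binding kinase of the cytoskeleton, rose by 1.30 ± 0.09, and it lay below 4.02 in MOLM14 and U937. TBL1X, a subunit of the NCoR and SMRT corepressor complexes, rose by 1.31 ± 0.19. CSTA, which encodes the cysteine protease inhibitor cystatin A, had 8.34, 8.13 and 8.44 in Met and 7.31, 6.98 and 6.79 in Ctrl (1.28 ± 0.13), and rose by 0.62 in U937. KIZ, a centrosome protein, rose by 1.46 ± 0.09, and also by 0.82 in U937 and 0.43 in MOLM14. Of the genes of less known roles, ZC3H6 rose by 1.61, and also by 1.25 in U937 (adjusted p = 2.39e-09) and 0.62 in MOLM14. TATDN3 rose by 1.52 in HL60 and 0.61 in U937, and PIERCE2 by 1.31 in HL60. SPNS3, of a family of lipid transporters, had 7.08, 7.21 and 7.04 in Met and 5.75, 5.52 and 5.55 in Ctrl arrays, and its rise exceeded the mean of the other lines by 1.34 ± 0.10, with a rise of 0.73 in U937. CEP19, a protein of the centrosome and cilium, rose by 1.03 ± 0.15. For all 18 genes named so far in this group and below as largest rises or largest positive differences, the HL60 change and the difference passed under each alternative run.

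**Figure D3:**
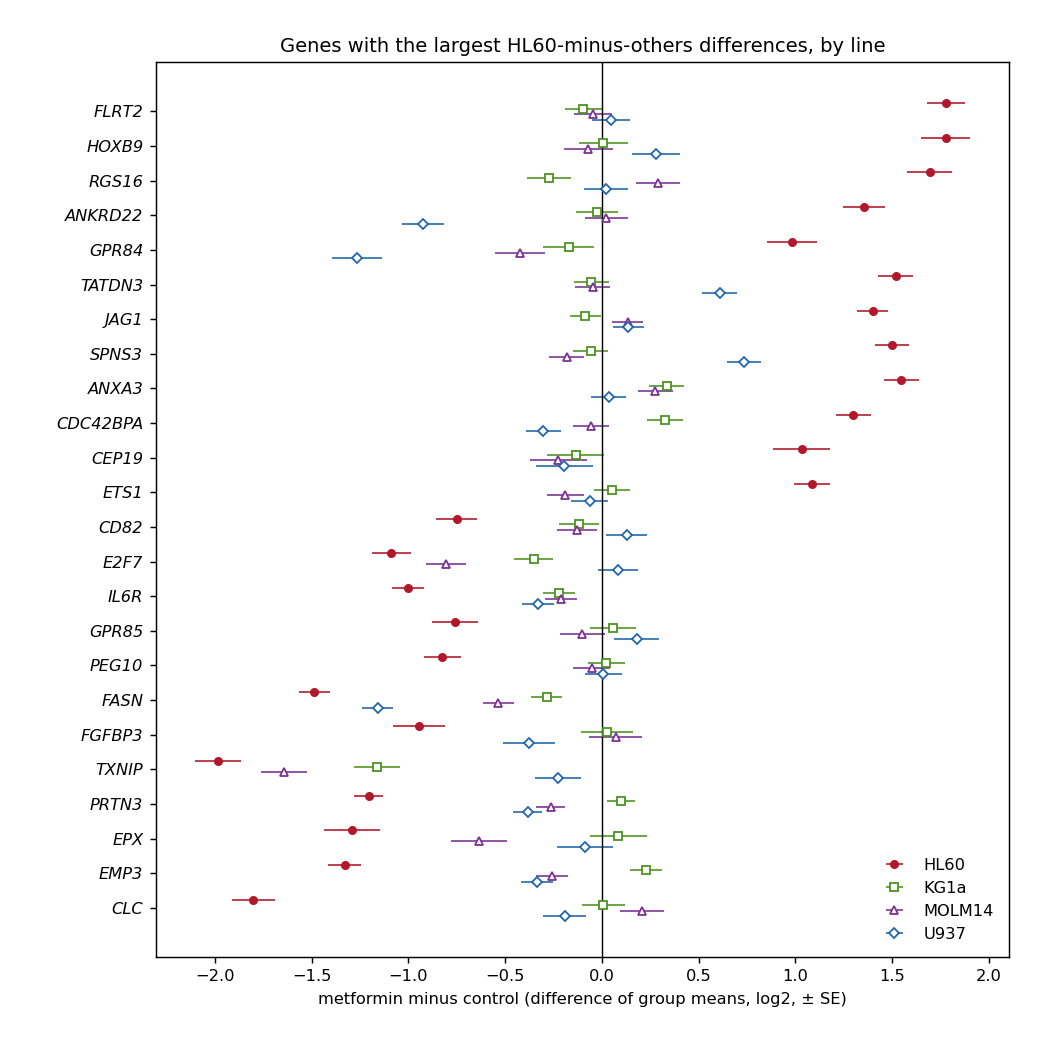
Change in each line, Met minus Ctrl on the log2 scale with standard errors, for the 24 genes with the largest differences between HL60 and the mean of the other lines, from higher at the top to lower at the bottom. HL60 is the filled red circle. HL60 lies outside the range of the other 3 lines in every row, and for TATDN3, SPNS3, ANXA3, E2F7, IL6R, FASN, TXNIP, PRTN3, EPX and EMP3 at least 1 other line also passed the threshold in the same direction.

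In a few genes the HL60 change and the mean change of the other lines both passed with opposite signs, though not each of the other lines passed. GPR84, a receptor for medium-chain fatty acids on myeloid cells, had 6.08, 6.28 and 6.03 in Met and 5.49, 5.15 and 4.81 in Ctrl arrays, a change of 0.98 ± 0.13 (adjusted p = 4.81e-06). It changed by -0.17 in KG1a, -0.42 in MOLM14 and -1.26 in U937, and the difference of 1.60 ± 0.15 had an adjusted p of 7.34e-08. ANKRD22, an ankyrin repeat protein, rose by 1.35 ± 0.11 in HL60 and changed by -0.93 in U937, while KG1a and MOLM14 lay near 3.5. JUN, the AP-1 subunit, rose by 0.69 ± 0.14 in HL60, with 6.27, 5.93 and 5.75 in Met and 5.56, 5.25 and 5.08 in Ctrl. The JUN change was -0.84 in U937, 0.05 in KG1a and -0.21 in MOLM14, and the last did not pass (adjusted p = 0.469). In KG1a and MOLM14 JUN averaged 3.40 or less in both groups. SUCNR1, the succinate receptor, was at 8.28, 7.80 and 8.26 in Met and 7.85, 7.64 and 7.19 in Ctrl, where the groups overlapped (0.55 ± 0.16, adjusted p = 0.0123). Its change was -0.58 in KG1a, -0.26 in MOLM14 and -0.34 in U937, and the difference of 0.94 ± 0.18 passed with an adjusted p of 0.00147. The HL60 call of SUCNR1 was lost without control C (adjusted p = 0.11), Met A or Met C, while that difference kept passing under each alternative.

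Smaller opposite changes were measured in IL18RAP, a subunit of the interleukin 18 receptor (0.42 ± 0.12 in HL60), RAPGEF2, an activator of the GTPase RAP1 (0.38 ± 0.09), and PRR3, a proline-rich protein (0.42 ± 0.10). The HL60 change exceeded the mean change of the other lines by 0.75, 0.68 and 0.71, and these differences passed. RP9P is a pseudogene whose signal may come in part from its parent gene, so its value of 0.44 ± 0.16 is uncertain, and its call was lost without control A, control B (adjusted p = 0.304) or any 1 of the Met arrays. The IL18RAP call was lost without control B (adjusted p = 0.0572). Those of RAPGEF2 and PRR3 in HL60 were lost with quantile normalization and no control C (adjusted p = 0.113 and 0.0533).

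The genes with the largest falls included regulators of glucose uptake and of lipid synthesis. TXNIP, which limits glucose uptake and is switched on by glucose through MondoA and ChREBP, had 5.63, 5.64 and 5.32 in Met and 7.67, 7.38 and 7.50 in Ctrl arrays (adjusted p = 7.35e-12). Its change was more negative in HL60 than in the mean of the others by 0.98 ± 0.14 (adjusted p = 4.02e-05), although KG1a and MOLM14 changed by -1.16 and -1.64. That mean includes U937, where TXNIP changed by -0.23 and did not pass (adjusted p = 0.202). Over the alternatives the difference ran from -1.29 to -0.56 and kept passing. ARRDC4, its relative and a target of the same factors, had 4.93, 4.77 and 4.78 in Met and 6.06, 6.11 and 5.62 in Ctrl (-1.11 ± 0.15), and its difference did not pass (adjusted p = 0.0839). A further arrestin family gene, ARRDC3, went the other way, with 7.97, 7.73 and 7.75 in Met and 6.75, 6.50 and 6.64 in Ctrl (1.18 ± 0.14, adjusted p = 8.67e-07). The ARRDC3 change in the other lines was 0.07, -0.01 and 0.37, and the difference of 1.04 ± 0.16 passed (adjusted p = 0.000129). HBP1, a repressor of cell cycle genes on the same list, rose by 0.44 ± 0.09. Of the 7 tested glucose-sensing genes 2 rose (28.6%) and 3 fell (42.9%), against 15.5% and 9.56% of all genes. The median change of that list was 0.04.

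On the fatty acid synthesis list 10 of 17 tested genes fell in HL60 (58.8%) and 2 rose (11.8%), against 9.56% and 15.5% of all genes. FASN, fatty acid synthase, had 7.24, 7.37 and 7.24 in Met and 8.78, 8.74 and 8.80 in Ctrl arrays (-1.49 ± 0.08, adjusted p = 1.5e-12), against changes of -0.29 in KG1a, -0.54 in MOLM14 and -1.16 in U937, and the difference of -0.83 ± 0.09 passed (adjusted p = 1.18e-06). SCD, the stearoyl-CoA desaturase, changed by -0.91 ± 0.08. ACACB, the acetyl-CoA carboxylase of the mitochondrial surface, rose by 1.06 ± 0.10, with 6.06, 6.14 and 5.77 in Met and 5.02, 4.91 and 4.86 in Ctrl. The list also holds the mevalonate enzyme MVD (-1.20 ± 0.11), which is among the 10, and its median change was -0.38. The difference from the other lines was lower in 6 and higher in 1.

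Glycolysis was covered in part. Of 24 listed genes 9 were tested, and 5 fell (55.6%) and 0 rose, against 9.56% and 15.5% of all genes. The median change was -0.32. PGAM1, the phosphoglycerate mutase, had 7.29, 7.12 and 6.97 in Met and 8.42, 8.06 and 8.04 in Ctrl (-1.05 ± 0.13, adjusted p = 1.67e-06), and its difference of -0.58 ± 0.15 passed (adjusted p = 0.0139), but not without control A or Met C (largest adjusted p 0.0624). LDHA, lactate dehydrogenase A, had 8.49, 8.53 and 8.39 in Met and 9.21, 9.04 and 8.71 in Ctrl (-0.52 ± 0.12). HK1 and TPI1 changed by -0.32 and -0.39, and the TPI1 call was lost without control C (adjusted p = 0.123) or Met A. For these 3 the groups did not overlap in HL60, and their differences from the other lines did not pass.

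Other large falls concerned membrane and signalling proteins. EMP3, a small tetraspan membrane protein, had 8.39, 8.36 and 8.30 in Met and 9.67, 9.70 and 9.66 in Ctrl arrays, a change of -1.33 ± 0.08 (adjusted p = 1.51e-11). It was at 10.6 in the controls of both MOLM14 and U937 and changed there by -0.26 and -0.33. IL6R, the interleukin 6 receptor, had 5.97, 5.86 and 5.91 in Met and 6.86, 6.90 and 7.0 in Ctrl, a change of -1.0 ± 0.08 (adjusted p = 2.69e-09), against changes of -0.22, -0.21 and -0.33 in the other lines. Both groups of both genes were tight and apart. PEG10, an imprinted gene derived from a retrotransposon, averaged 3.78 or less in every group of the other lines and in HL60 had 8.29, 8.15 and 8.04 in Met and 9.15, 8.93 and 8.88 in Ctrl (-0.82 ± 0.10). The orphan receptor GPR85, the tetraspanin CD82 and the growth factor carrier FGFBP3 changed by -0.76, -0.75 and -0.94.

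Receptors and inflammatory genes were called both ways, and over all genes 15.5% were higher and 9.56% lower. Of 13 tested cytokine receptors 3 rose (23.1%) and 2 fell (15.4%). IFNGR1, a chain of the interferon gamma receptor, rose by 0.46 ± 0.09 and IL18R1, of the interleukin 18 receptor, by 0.40 ± 0.10. The IL18R1 call was lost without control C (adjusted p = 0.0522). TNF, the gene of tumour necrosis factor, had 4.53, 4.35 and 4.44 in Met and 5.44, 5.34 and 5.37 in Ctrl arrays (-0.94 ± 0.10, adjusted p = 8.47e-08). IL18, the cytokine, had 7.81, 7.57 and 7.90 in Met and 7.03, 7.08 and 6.39 in Ctrl (0.92 ± 0.13, adjusted p = 1.43e-05). Both groups were separate for both genes, and both differed from the other lines, by -0.69 ± 0.11 for TNF and 0.74 ± 0.15 for IL18. Of 13 tested inflammatory genes 2 rose (15.4%) and 2 fell (15.4%). Among 11 tested integrins and adhesion genes 2 rose (18.2%) and 0 fell. CD38, an NAD-consuming surface enzyme that increases in differentiating HL60 cells, rose by 1.17 ± 0.14. It had 5.94, 5.66 and 5.37 in Met and 4.53, 4.77 and 4.18 in Ctrl. CD47, the signal that restrains phagocytosis, rose by 0.54 ± 0.09.

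Immediate early genes, which cells switch on first after a stimulus, were called both ways. Of 19 tested 5 rose (26.3%) and 3 fell (15.8%), against 15.5% and 9.56% of all genes. The median change was -0.05. In the difference from the other lines 5 were higher and 0 lower, against 5.86% and 1.83% of all genes. FOSL2, an AP-1 subunit, had 5.97, 5.75 and 5.56 in Met and 5.14, 5.16 and 4.73 in Ctrl arrays (0.75 ± 0.12, adjusted p = 6.63e-05). EGR1, a growth-induced zinc finger factor, had 7.40, 7.24 and 7.45 in Met and 6.61, 6.80 and 6.54 in Ctrl (0.71 ± 0.18, adjusted p = 0.00622). KLF10, a target of transforming growth factor beta, changed by -0.48 ± 0.12. FOSL2, EGR1 and JUN were higher in every Met array than in any control, and their differences of 0.74, 0.86 and 1.02 passed. Of 10 tested feedback genes of the MAPK pathway 3 rose (30.0%) and 1 fell (10.0%). SPRY2, an inhibitor of receptor signalling, rose by 0.53 ± 0.10, the factor ETV5 by 0.51 ± 0.11 and DUSP6, the ERK phosphatase, by 0.43 ± 0.10, and FOSL1 changed by -0.28 ± 0.10. The FOSL1 call was lost without control C (adjusted p = 0.161), control A, Met B or Met C, and that of KLF10 without Met C (adjusted p = 0.0565).

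Genes of the unfolded protein response moved both ways. ERN1, which encodes the sensor IRE1, had 6.49, 6.30 and 6.15 in Met and 4.66, 4.62 and 4.81 in Ctrl arrays, a rise of 1.62 ± 0.12 (adjusted p = 2.32e-10). XBP1, whose RNA IRE1 splices, had 9.21, 9.12 and 9.24 in Met and 8.62, 8.67 and 8.37 in Ctrl (0.64 ± 0.08, adjusted p = 2.71e-06), and SEL1L, a subunit of the degradation complex of the endoplasmic reticulum, rose by 0.70 ± 0.09. SDF2L1, a partner of chaperones there, had 5.19, 5.59 and 5.12 in Met and 6.53, 6.30 and 6.31 in Ctrl (-1.08 ± 0.13, adjusted p = 1.51e-06). The rises of ERN1, XBP1 and SEL1L were larger than in the other lines by 1.28 ± 0.13, 0.78 ± 0.09 and 0.71 ± 0.10, all past the threshold, while that of SDF2L1 did not pass the test of the difference (adjusted p = 0.637). Of 19 tested genes 5 rose (26.3%) and 6 fell (31.6%), against 15.5% and 9.56% of all genes. The difference was higher in 5 and lower in 0, against 5.86% and 1.83% of all genes. The array rows do not separate spliced from unspliced XBP1.

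Among 19 tested histone demethylase genes 5 rose and 0 fell, against 15.5% and 9.56% of all genes. KDM7A, an eraser of methyl marks on histone H3, had 8.85, 8.61 and 8.73 in Met and 6.49, 6.16 and 5.96 in Ctrl arrays (2.52 ± 0.12, adjusted p = 2.61e-13). KDM6B, which removes the Polycomb mark, had 7.12, 6.83 and 6.98 in Met and 5.97, 5.80 and 5.68 in Ctrl (1.16 ± 0.10, adjusted p = 9.12e-09), and KDM4A and JMJD1C rose by 0.60 ± 0.09 and 0.55 ± 0.08. The Met and Ctrl arrays of the 4 genes did not overlap, and their differences from the other lines passed, at 1.81, 0.95, 0.43 and 0.40. The KDM4A difference did not pass in 2 of 20 alternatives (largest adjusted p 0.0584), and that of JMJD1C in 3 of 20 (largest adjusted p 0.0749). KDM7A also rose in MOLM14 and U937, by 1.17 and 0.81, and lay below 4.02 in KG1a. The median change of the list was 0.17, and 2 of its genes were lower after quantile normalization.

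Genes of FOXO and insulin signalling had 4 higher and 2 lower of 18 tested, against 15.5% and 9.56% of all genes, with a median change of 0.13. KLHL24, a FOXO target, rose by 0.82 ± 0.11, the factor KLF9 by 0.51 ± 0.10 and the insulin receptor INSR by 0.47 ± 0.10, and SESN3, a sestrin under FOXO control, had 4.23, 4.17 and 4.15 in Met and 5.27, 5.11 and 4.57 in Ctrl (-0.80 ± 0.13). Among 17 tested genes of the BCL2 family 3 rose (17.6%) and 3 fell (17.6%), and 3 and 6 did after quantile normalization. PMAIP1, the proapoptotic NOXA, had 8.83, 8.46 and 8.78 in Met and 7.84, 7.65 and 7.60 in Ctrl arrays (0.99 ± 0.12, adjusted p = 7.51e-07), and BAK1, a pore-forming effector, changed by -0.53 ± 0.11. PMAIP1 differed from the other lines by 0.63 ± 0.13. The BAK1 difference of -0.42 ± 0.12 (adjusted p = 0.0379) did not pass in 8 of 20 alternatives, among them leaving out control A, control B, Met B (adjusted p = 0.15) or Met C.

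**Figure D4:**
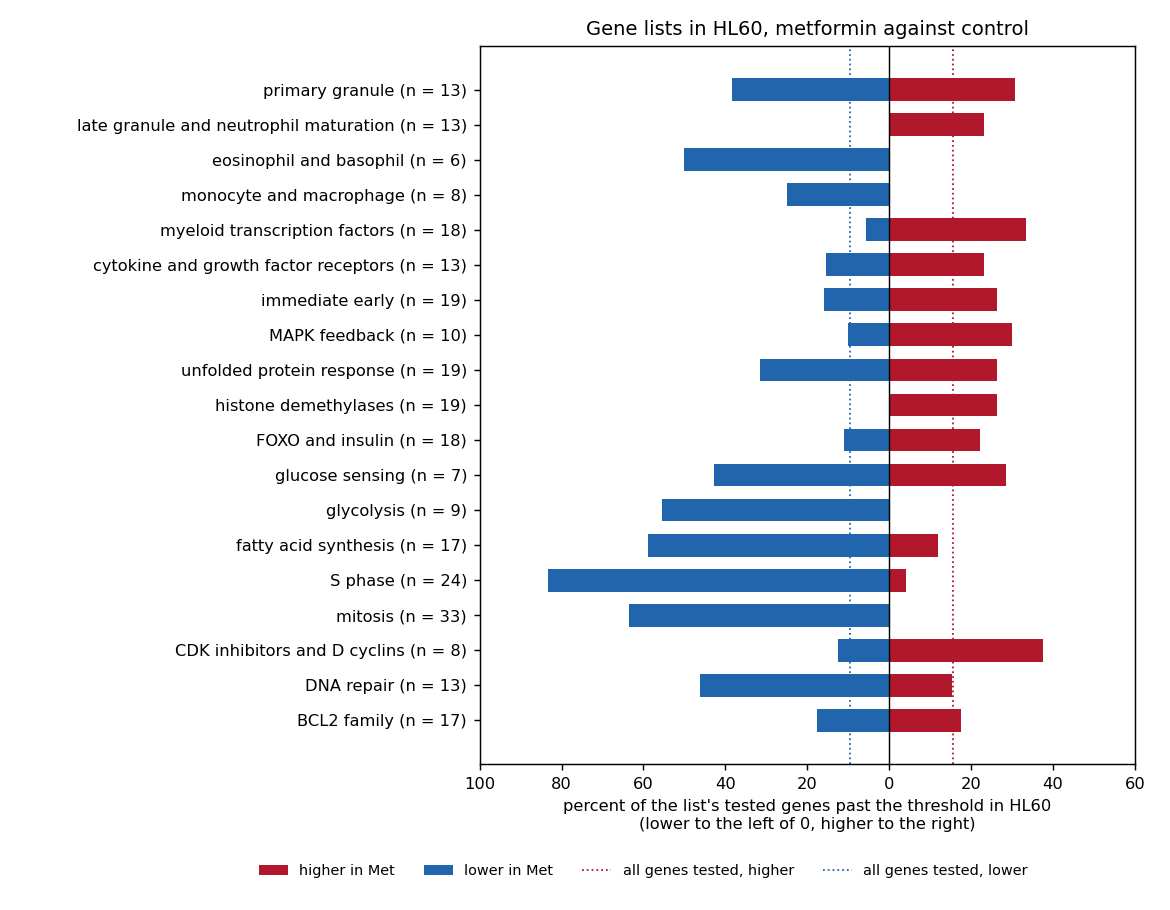
Percent of each list's tested genes past the threshold in HL60, lower in Met to the left and higher in Met to the right of 0, with the number tested beside each list. Dotted lines mark the same over all 10641 genes, 15.5% higher and 9.56% lower. The S phase and mitosis bars reach 83.3% and 63.6% on the left, and the histone demethylase and late granule bars lie on the right alone.

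Most tested S phase genes fell in HL60, 20 of 24 (83.3%), and 1 rose, against 9.56% and 15.5% of all genes. The median change was -0.48. GINS2, a subunit of the replicative helicase, had 6.34, 6.25 and 6.32 in Met and 7.28, 7.47 and 7.19 in Ctrl arrays (-1.01 ± 0.10, adjusted p = 8.47e-08). CCNE2, cyclin E2, had 5.23, 5.16 and 5.44 in Met and 6.68, 6.41 and 6.01 in Ctrl (-1.09 ± 0.14, adjusted p = 2.12e-06). The repressor E2F8 changed by -0.96 ± 0.09, the methylation maintenance factor UHRF1 by -0.86 ± 0.09 and the checkpoint adaptor CLSPN by -0.85 ± 0.10. Outside the list, E2F7, the partner of E2F8, changed by -1.09 ± 0.10 and the flap endonuclease FEN1 by -1.0 ± 0.09. In all 7 genes every Met array lay below every control.

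The other lines lowered S phase genes too, with 3 of the 24 lower in KG1a, 12 in MOLM14 and 21 in U937 and medians of -0.14, -0.30 and -0.38. Over all 10641 genes, 178 were lower in KG1a, 274 in MOLM14 and 1036 in U937, so the shares of HL60 do not serve for these lines. In the test of the difference 8 were lower in HL60 and 1 higher, with a median of -0.21. That 1 gene, CDT1, which loads the helicase at origins, was singled out after its value was seen: it changed by 0.31 in HL60, against -0.12, -0.15 and -0.32 in KG1a, MOLM14 and U937. With arrays centred over the genes kept, the CDT1 rise in HL60 did not pass. E2F7 differed from the other lines by -0.73 ± 0.12, and FEN1 by -0.61 ± 0.11.

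**Figure D5:**
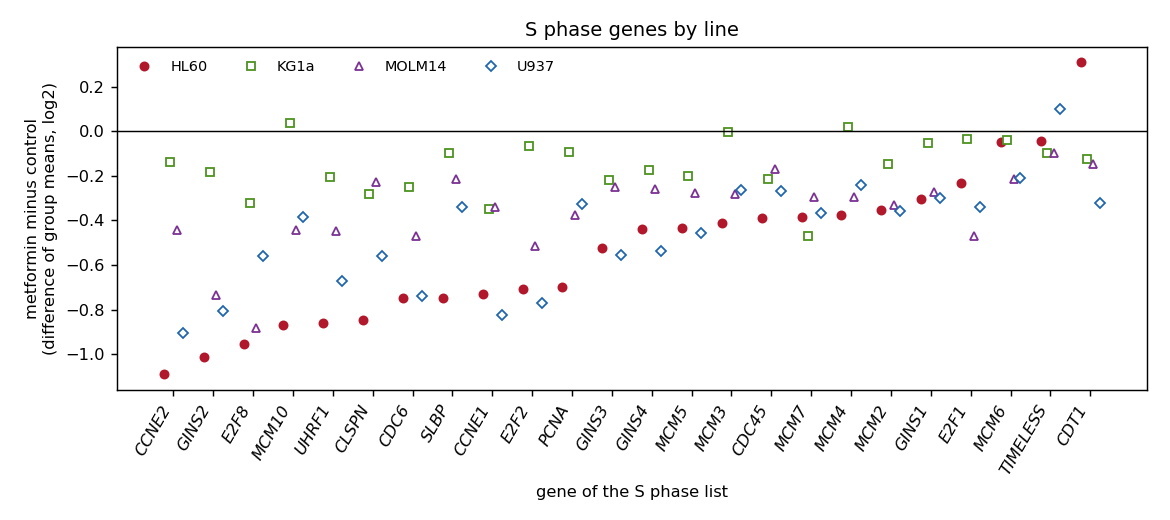
Change of the 24 tested S phase genes in each line, Met minus Ctrl on the log2 scale, ordered by the change in HL60 (filled red circles). HL60 values run from -1.09 for CCNE2 to 0.31 for CDT1, and KG1a values lie nearest to 0 for most genes.

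Of 33 tested mitosis genes 21 fell (63.6%), 0 rose and 12 were not called in HL60. Over all genes 9.56% fell and 15.5% rose. The median change of the list was -0.32, and 4 fell in KG1a, 19 in MOLM14 and 7 in U937. Those 3 counts stand against 178, 274 and 1036 lower of all 10641 genes in KG1a, MOLM14 and U937. KIF20A, a kinesin of cytokinesis, had 6.81, 6.73 and 6.83 in Met and 7.66, 7.75 and 7.79 in Ctrl arrays (-0.94 ± 0.10, adjusted p = 3.94e-07). The proliferation marker MKI67 changed by -0.59 ± 0.08, cyclin A2 (CCNA2) by -0.55 ± 0.07 and the spindle kinesin KIF11 by -0.47 ± 0.07. The groups of these 4 genes did not overlap. In the test of the difference 2 of 33 were lower in HL60, 6 after quantile normalization and 11 with arrays centred over the genes kept. Of 8 tested genes on the list of cyclin-dependent kinase (CDK) inhibitors and D cyclins, which also holds retinoblastoma family members, 3 rose (37.5%) and 1 fell (12.5%). CCND3 changed by -0.58 ± 0.09, with 5.07, 5.50 and 5.17 in Met and 5.76, 5.84 and 5.90 in Ctrl, while CCND2 rose by 0.39 ± 0.08 and the pocket protein genes RBL2 and RB1 by 0.42 ± 0.08 and 0.27 ± 0.08. The RB1 call was lost without control C (adjusted p = 0.121) or Met A. CCND2 differed from the other lines, by 0.53 ± 0.09 (adjusted p = 0.00055), and CCND3 did not (adjusted p = 0.0624). Whether fewer cells were in cycle or each cell held less of these RNAs was not tested.

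The lists set aside when the largest genes were chosen gave the frame for these values. Of 23 tested ATF4 and stress genes 20 rose and 0 fell in HL60, with a median of 1.59, and 18 exceeded the mean of the other lines. Of 19 tested cholesterol synthesis genes 15 fell, with a median of -0.80, and 12 were below it.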

How the data were processed

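Per the labels' protocols, 250 ng of total RNA per sample of the 4 lines were labelled with biotin for Affymetrix arrays. The authors deposited normalized values in 1 table, which are log2 as judged from their range of 1.88 to 14.19, since no deposited text states the base. The submitters' processing notes name Partek. How background, normalization and summarisation were done is not given in the sources used here, so signal over background was not assessed and changes near the lower end are compressed.

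Of 53617 rows, 16098 have 1 gene symbol in the platform annotation, 0 have several and 37519 are unnamed here and were not used. All symbols matched RefSeq of GRCh38.p14. Each gene was represented by its row of highest mean over the 24 arrays. Of 14884 genes, 10641 had a group mean of at least 4.02 and 4243 did not. The limma package (3.58.1, R 4.3.3) was given a model of 8 group means (16 residual degrees of freedom, empirical Bayes), and Benjamini-Hochberg adjustment ran over all 10641 genes in each contrast. The contrasts were Met minus Ctrl in HL60, and that change minus the mean change of the other 3 lines.

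The genes named are the 15 largest changes each way in HL60 and the 12 largest differences each way (past the threshold, arrays of both groups apart, higher group mean at least 5), 8 genes with opposite signs, 15 set granule and myeloid genes, and 2 to 4 genes of each list with the smallest adjusted p. ATF4, sterol, serine and tRNA synthetase lists, miRNAs, small RNAs, antisense and unnamed loci were left out of the first 2 sets. HL60 and the 61 gene lists were chosen with earlier results of these data known. The alternatives were quantile normalization, centring, other filters and thresholds, a trend, array weights, a replicate block, the mean of a gene's rows, HL60 alone, and leaving out each HL60 array or other line. Those added after seeing the data were quantile normalization without HL60 control C, leaving out the 3 arrays of lowest weight, and centring over the genes kept. Within the HL60 groups no 2 arrays were duplicates, with at most 4 rows identical in a pair. Other pairs of arrays were not searched for identical rows. The fit was tested on simulated data in which 100 of 10641 genes changed by 0.5 and 100 by 1: 74% of changes of 0.5 and 100% of changes of 1 were recovered for HL60, and 63% and 100% for the difference. Plots used Python 3.11.15 with matplotlib 3.10.9.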

Additional observations from a re-analysis of the deposited data

Results flagged for a closer look

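A limma contrast tested whether the metformin change of HL60 differs from the mean change of the other lines, and 819 genes passed it. The other lines were also tested 1 by 1 in the fit, and their changes stand in the plot of changes by line. Among the genes named, those with a higher change in HL60 were FLRT2 (difference 1.81 on the log2 scale), HOXB9 (1.70), RGS16 (1.68), ANKRD22 (1.66), GPR84 (1.60), TATDN3 (1.35), JAG1 (1.34), SPNS3 (1.34), ANXA3 (1.33), CDC42BPA (1.31), CEP19 (1.22), ETS1 (1.15), JUN (1.02), SUCNR1 (0.94), RP9P (0.77), IL18RAP (0.75), PRR3 (0.71), RAPGEF2 (0.68), MPO (0.53) and CTSG (0.30). Those with a lower change in HL60 were CLC (-1.81), EMP3 (-1.21), EPX (-1.08), PRTN3 (-1.02), TXNIP (-0.98), FGFBP3 (-0.85), FASN (-0.83), PEG10 (-0.82), GPR85 (-0.80), IL6R (-0.75), E2F7 (-0.73) and CD82 (-0.71). The group means lay at 4.02 or below, near the lower end of the scale, in all 3 other lines for CLC, EPX and PEG10, in 2 of them for FLRT2, ANKRD22, CDC42BPA, JUN, MPO, FGFBP3 and GPR85, and in 1 for ANXA3, IL18RAP, CTSG, PRTN3 and E2F7. HOXB9 lay between 3.98 and 4.26 in the other lines. The MPO difference was 0.11 without MOLM14. The CTSG difference did not pass in 12 of 20 alternatives, with an adjusted p of 0.204 without control C. With 3 arrays a group, the values of single genes were not checked for an array far from the others. Over all rows HL60 control C stood apart in its spread, with the lowest array weight, 0.35.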

How the results depend on the processing

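Among the genes named under the rules for largest changes, differences, opposite signs and set genes, none that passed reversed in any alternative. MPO, which did not pass in HL60, ran from -0.055 to 0.089 over all runs, so its sign was not fixed. Of the 49 that passed in HL60, 46 passed without HL60 control C, 48 after quantile normalization, 44 with both and 40 under each alternative. Leaving out 1 HL60 array gave 2022 to 2538 genes in HL60 and 561 to 996 in the difference. A threshold of 0.01 gave 1545 genes (1005 higher, 540 lower) and 428 in the difference (349 and 79). Quantile normalization gave 1538 lower, and 325 lower in the difference. Quantile normalization without control C gave 994 higher, and 371 higher in the difference. Centring over the genes kept moved the median change by -0.10 and gave 1125 higher and 1987 lower, and 389 higher and 599 lower in the difference. Array weights gave 1380 genes in the difference (939 and 441), centred arrays 124 lower, and leaving KG1a out 126 lower. For these counts the cause was not tested. HL60 arrays alone gave 1261 higher and 706 lower. Same-letter Met and Ctrl arrays of HL60 correlated at 0.062, 0.072 and 0.146 in their deviations, each Met array best with its own letter. The main fit did not pair the letters, so an effect shared by arrays of the same letter stays in it. With a replicate block 2601 genes passed in HL60 and 810 in the difference. The number of arrays and unknown background limit small changes.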

Other observations

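Other lists of HL60 hold values not described above. Of 7 tested genes of the hexosamine pathway and protein O-GlcNAc turnover 3 rose (42.9%) and 1 fell (14.3%), against 15.5% and 9.56% of all genes. OGT, which adds the sugar to proteins, had 10.12, 10.19 and 10.18 in Met and 9.60, 9.54 and 9.58 in Ctrl arrays (0.59 ± 0.08, adjusted p = 6.66e-06), and OGA, which removes it, rose by 0.54 ± 0.08. GFPT1, the first enzyme of the pathway, rose by 0.69 ± 0.10 and UAP1, its last, changed by -0.36 ± 0.07. The GFPT1 change exceeded that of the other lines by 0.52 ± 0.12 (adjusted p = 0.00711), and those of OGT, OGA and UAP1 did not differ past the threshold. Of 16 tested genes of the TCA cycle and pyruvate 4 rose and 3 fell, with PCK2, the mitochondrial PEP carboxykinase, at 1.38 and MPC1, a subunit of the pyruvate carrier, at 0.46.

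Of 25 tested autophagy genes 5 rose and 1 fell. MAP1LC3B, the gene of the autophagosome protein LC3B, had 5.14, 5.01 and 5.15 in Met and 4.66, 4.45 and 4.80 in Ctrl arrays (0.46 ± 0.10), and its difference of 0.64 ± 0.11 from the other lines passed (adjusted p = 0.000682). Of 18 tested mTORC1 and AMPK genes 5 rose (27.8%) and 2 fell (11.1%), among them TSC1, an inhibitor of mTORC1, at 0.63 ± 0.09. Of 24 tested interferon-inducible genes 5 rose (20.8%) and 2 fell (8.33%), and 2 rose without control C. SAMHD1, a dNTP hydrolase, had 7.14, 7.06 and 7.10 in Met and 7.83, 7.78 and 7.72 in Ctrl (-0.68 ± 0.10, adjusted p = 1.58e-05). Of 51 tested cytosolic ribosome genes 7 rose (13.7%) and 5 fell (9.8%), and 5 rose and 8 fell after quantile normalization, so no direction is given. Mitochondrial ribosome genes had 4 higher and 16 lower of 76, against 15.5% and 9.56% of all genes, with 28 lower after quantile normalization and 1 higher without control C. Of 423 tested ZNF genes 61 were higher (14.4%) and 19 lower (4.49%), and 43 and 33 after quantile normalization. The proteasome and amino acid transporter lists had 0 genes tested and are not analysed here.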
